A study of Mus musculus with 8 samples.

Results

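The Flt4 locus was examined at 59 of the 136069 cytosine positions, here called sites, in a table of DNA methylation from the mouse 4T1 mammary tumor model. They were all the sites listed in an interval of 48 kb on chromosome 11, the first at position 49461954 and the last at 49466268. That interval was picked because methylation there was higher in the lung metastases labelled TVI than in the other samples, so no difference that involves TVI samples is supported here by a p-value. Where such sites are counted as called in a fit over the whole table, the count describes the chosen sites and is no independent evidence. The comparison of MFP lung metastases with primary tumors was not itself the ground of the choice, and its p-values are given. A choice for TVI values above both other groups can favour places where those groups lie close. A lack of difference between them is therefore no independent result.

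The study set lung metastases against primary tumors by bisulfite sequencing, which reads methylated and unmethylated cytosines apart after chemical conversion. The groups were 2 primary tumors labelled MFP, 3 lung metastases labelled MFP and 3 lung metastases labelled TVI. The abbreviations are kept as the labels write them. All 8 samples were 4T1 mammary tumor cells in BALB/c mice, so the study rests on 1 transplantable cell line. No age, time point or drug is given in the labels, no primary tumor carries the label TVI, and no normal mammary gland or lung was analysed here. Whether the samples of a group are different animals is not stated. The p-values below therefore rest on a spread between samples that could be technical.

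Flt4 encodes VEGFR-3, a receptor tyrosine kinase that binds the growth factors VEGF-C and VEGF-D and drives the growth of lymphatic vessels. In adult tissue the receptor is known chiefly from lymphatic endothelium, and in tumors its ligands have been studied for their part in spread through lymphatic vessels. Cytosine methylation in mammals falls mainly on CG dinucleotides. It is typically low at CG-rich promoters and high within gene bodies, so a site's position in a gene bears on how its level is read.

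The coordinates were checked before any gene name was used, since the submitters' processing notes name mm10. On chromosome 7, 557 of 3166 listed positions were higher than the end of any gene in GRCm38.p6, the reference behind mm10, so the positions were not mm10. The spacing of CGs in RefSeq promoters was then matched to the spacing of listed sites, and 162 of 13249 promoters found a match, 26 of them on chromosome 11. The nearest matched promoter after Flt4 belonged to Ppp2ca, which encodes the catalytic subunit of protein phosphatase 2A, at a distance of 2.45 Mb. Of its 34 CGs, 15 were listed, displaced by 186497 bp from GRCm38.p6, and 7 matched promoters over 34.4 Mb of the chromosome shared that displacement. A match was kept only where another promoter of the chromosome had nearly the same displacement. The sharing was thus fixed in part by the matching. Carried over to Flt4, it put 58 of the 59 sites inside the gene and the last site 26 bp past the gene's end.

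The placement rests on 1 flank. The nearest matched promoter before Flt4, that of Pold2, which encodes a DNA polymerase delta subunit, lay 43.7 Mb away and carried a displacement of 99996 bp, under which 0 listed sites fell in Flt4. The preceding build, mm9, is the candidate for the deposited positions, but no mm9 genome or annotation was used here. The build was therefore not settled, and no exon, intron or UTR was assigned. Under the Ppp2ca displacement the sites covered 4315 bp at the far end of a gene of 43061 bp, starting 38772 bp after the gene's start. Flt4's promoter, the 250 bases before and 50 after the gene's start, holds 26 CGs and 0 of them were listed, so the values below say nothing about the Flt4 promoter. The next gene, Scgb3a1, held 0 of the 59 sites.

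The Ppp2ca promoter is printed because the placement turns on it. RefSeq (GRCm38.p6) gives these 250 bases at chr11:52098574-52098823, plus strand, 5′ to 3′, with the 15 CGs that match a listed site in capitals.
Ppp2ca: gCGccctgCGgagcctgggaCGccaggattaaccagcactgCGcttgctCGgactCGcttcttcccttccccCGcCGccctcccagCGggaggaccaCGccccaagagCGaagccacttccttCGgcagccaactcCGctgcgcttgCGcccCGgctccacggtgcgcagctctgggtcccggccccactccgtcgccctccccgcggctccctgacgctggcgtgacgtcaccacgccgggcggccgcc
The capitals run through the part farthest from the gene's start, and the other 15 CGs of these bases match no listed site. Methylation over the 15 sites was 0.891% ± 0.180 in tumors (SD, n = 2), against 1.29% ± 0.335 in the MFP (SD, n = 3) and 1.63% ± 0.108 in the TVI metastases (SD, n = 3). From Flt4 to the last matched promoter with this displacement, 25 promoter windows of chromosome 11 held a listed position after displacement. In them, 160 of 160 positions fell on a CG. These windows include the matched promoters themselves, which were kept only where every listed site between their outer CGs fell on a CG. The count was thus fixed in part by the matching and is no independent check of the placement.

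The 59 sites lay in 2 stretches. The first held 4 sites within 308 bp, from position 49461954 to 49462261, and the second held 55 sites within 2922 bp, from 49463347 to 49466268. Sites were joined into a stretch where they lay at most 500 bp apart. The nearest listed sites outside the interval were far away. Position 8599399, 40.9 Mb before the first site, was methylated at 94.3% ± 0.0250 in tumors, with 94.3% ± 1.11 in MFP and 96.0% ± 2.20 in TVI metastases. Position 50071847, 0.606 Mb after the last site, stood at 66.6% ± 4.37, 70.7% ± 0.850 and 79.0% ± 7.25 in the same order. Within the interval, the first listed site (49461954) stood at 18.9% ± 4.73, 21.2% ± 8.20 and 43.6% ± 4.17. The last listed site (49466268) stood at 0% ± 0, 0.940% ± 0.815 and 1.56% ± 2.71.

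**Figure D1:**
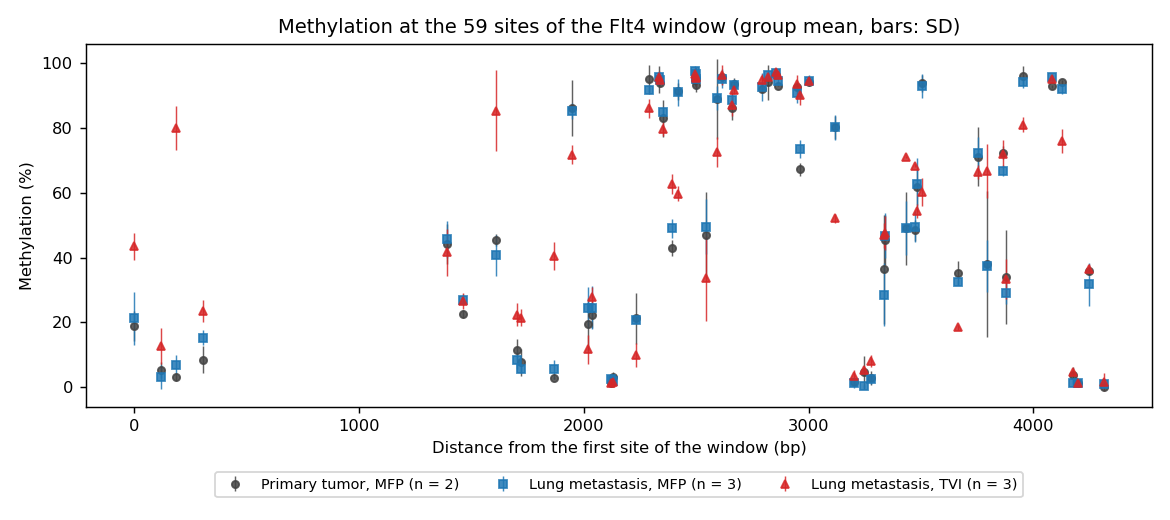
Methylation in percent (vertical axis) at each of the 59 sites against distance in bp from the first site (horizontal axis), as group means with SD bars for primary tumors (n = 2), MFP metastases (n = 3) and TVI metastases (n = 3). The TVI triangles stand above the other groups in the first 4 sites and lie both above and below them over the 55 sites that follow.

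In the first stretch, TVI metastases carried more methylation than every other sample. Averaged over its 4 sites, the tumors stood at 9.07% and 8.83%. The MFP metastases stood at 11.8%, 12.5% and 10.5%, and the TVI metastases at 36.5%, 42.1% and 41.2%. The TVI values did not overlap either other group, and their lowest sample lay far above the highest MFP metastasis. Group means were 8.95% ± 0.165 (SD, n = 2) for tumors, 11.6% ± 1.01 (SD, n = 3) for MFP and 39.953% ± 3.01 (SD, n = 3) for TVI metastases. The metastasis groups were 28.3 percentage points apart. Among 3083 such stretches in the table, each with at least 3 sites, this difference ranked 5. In bulk DNA a larger share of cells carrying methylation and more methylation per cell cannot be told apart.

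A single site carried most of that difference. Position 49462142 was methylated at 2.20% and 3.92% in the tumors. It read 4.29%, 10.4% and 6.0% in the MFP metastases and 72.4%, 85.7% and 81.9% in the TVI metastases. Methylation was thus low in all 5 MFP samples and high in all 3 TVI samples, with a mean difference of 73.1 points between the metastasis groups. Its difference from the tumors, 76.9 points, ranked 1 among 135914 sites that varied, and its difference from the MFP metastases ranked 14. Without this site, an average chosen after its values were seen, the other 3 sites stood at 10.9% ± 0.626, 13.2% ± 1.10 and 26.6% ± 1.77 in tumors, MFP and TVI metastases, and the difference between the metastasis groups was 13.4 points.

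The other 3 sites of the stretch were low in tumors and differed less. Position 49461954 read 15.5% and 22.2% in tumors, 24.7%, 27.1% and 11.9% in MFP metastases and 47.1%, 44.7% and 39.0% in TVI metastases. Position 49462261 read 11.4% and 5.68% in tumors, 16%, 12.6% and 17.1% in MFP metastases and 19.8%, 24.7% and 26.0% in TVI metastases. At both, every TVI value lay above every other value. Position 49462072 read 7.14% and 3.51%, then 2.04%, 0% and 7.14%, and then 6.76%, 13.3% and 18.0%, and its lowest TVI value overlapped both other groups.

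**Figure D2:**
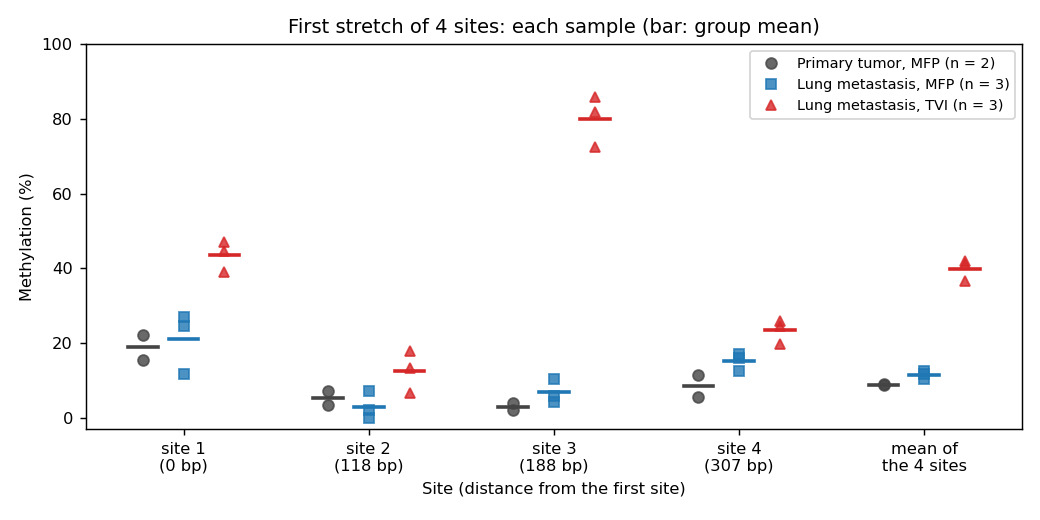
Methylation in percent (vertical axis) in each sample at the 4 sites of the first stretch and for their mean (horizontal axis, with distance from the first site in bp); points are samples and bars are group means. The TVI metastases reach 72.4% to 85.7% at the third site, where the other 5 samples lie at or below 10.4%.

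The average of the second stretch showed no such difference. Averaged over its 55 sites, the tumors stood at 57.5% and 55.7%. The MFP metastases stood at 56.0%, 56.6% and 57.2%, and the TVI metastases at 56.8%, 57.3% and 57.5%. The 3 groups overlapped, at 56.6% ± 1.23 (SD, n = 2), 56.6% ± 0.607 (SD, n = 3) and 57.2% ± 0.366 (SD, n = 3), and the metastasis groups differed by 0.557 points. A difference as wide as that of the 4-site stretch was thus not seen in the average of the 55 sites, although single sites among them were higher in TVI metastases by up to 44.7 points.

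The small difference of the averages covered large differences in both directions. With limma's moderated test over all sites that varied, adjusted by the Benjamini-Hochberg method with a threshold of 0.05, 11 of the 55 sites were called higher and 10 lower in TVI than in MFP metastases. Over all 59 sites the counts were 15 higher and 10 lower, and 9 of the 25 differed by at least 20 points. Of all sites tested, 16.9% were called in this comparison (10.4% higher and 6.53% lower), and 7.12% were called with at least 20 points. Nothing is read from the excess, since the interval was chosen on this contrast. Against the tumors, 13 of the 59 sites were called higher and 10 lower in TVI metastases, beside 16.6% of all sites called (11.4% higher and 5.24% lower). Both TVI comparisons are linked, as MFP metastases and tumors were each set against the same 3 TVI samples, and the MFP metastases also serve in the comparison with tumors. Of the 2 stretches, the first was called higher in TVI than in MFP metastases and the second was not called, where 55.7% of all stretches were called and 42% were called higher.

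The counts of gains and losses called among the 59 sites changed with the samples and the scaling. Between the metastasis groups, 8 sites were called higher and 8 lower without MFP metastasis 1, and 9 higher and 7 lower without TVI metastasis 3, a total of 16 each. The count called higher was also 9 without MFP metastasis 2 and without TVI metastasis 2. Sites with an unadjusted limma p below 0.05 numbered 29 with all samples. They numbered 28 without MFP metastasis 1 and 28 without TVI metastasis 3. The shares of all sites called under these settings are not given. The changed counts are therefore not read as a trait of the locus. Quantile normalization gave 11 higher and 11 lower between the metastasis groups, and 7 higher and 10 lower between TVI metastases and tumors. Without tumor 1, the sites called lower in TVI metastases than in tumors numbered 6. After quantile normalization the second stretch was called lower in TVI than in MFP metastases, by -1.79 points.

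The 2 largest gains in the second stretch lay near its start. Position 49463566 read 46.8% and 44.1% in tumors, 33.6%, 42.5% and 45.9% in MFP metastases and 71.2%, 90.8% and 94.2% in TVI metastases, a mean difference of 44.7 points between the metastasis groups. Position 49463822 read 2.92% and 2.47%, then 2.46%, 8.33% and 5.81%, and then 37.0%, 45.2% and 39.3%, a difference of 35.0 points. At both sites the TVI samples stood apart from all others, in the first case from a partly methylated level and in the second from a nearly unmethylated one. Position 49465750 read 54.1% and 22.2% in tumors, 32.4%, 33.3% and 46.5% in MFP metastases and 59.1%, 65.6% and 75.5% in TVI metastases, a difference of 29.3 points. The tumors themselves were far apart there, and every TVI value still lay above them.

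The largest losses began from high methylation. Position 49465458 read 95.6% and 92.0% in tumors, 94.5%, 88.9% and 96.0% in MFP metastases and 61.0%, 55.5% and 64.1% in TVI metastases, a difference of -32.9 points. Position 49464375 read 93.3% and 89.5%, then 86.8%, 95.0% and 91.5%, and then 60.2%, 57.4% and 61.8%, a difference of -31.3 points. At position 49465070 the values were 82.7% and 77.8%, then 75.9%, 82.4% and 82.5%, and then 53.2%, 50.6% and 52.6%, a difference of -28.1 points. At these 3 sites the tumors and MFP metastases overlapped, and the TVI samples lay below all of them within a range of less than 10 points.

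The called sites are described by their level in the tumors, again without a test. Of the 16 sites at or below 20% in tumors, 9 were called higher and 1 lower in TVI than in MFP metastases, where 13.4% and 2.94% of all sites of that level were called. Of the 24 sites at or above 80%, 0 were called higher and 7 lower, beside 2.31% and 5.27% of all such sites. The 19 sites between these levels held 6 called higher and 2 lower, beside 36.4% and 16.3%. Gains at low and losses at high levels thus outnumbered their opposites over the whole table as well, and a site near an end of the scale can move far in 1 direction only. The locus held more intermediate sites than the table, 32.2% against 16.3%, and fewer sites at or above 80%, 40.7% against 60.9%.

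**Figure D3:**
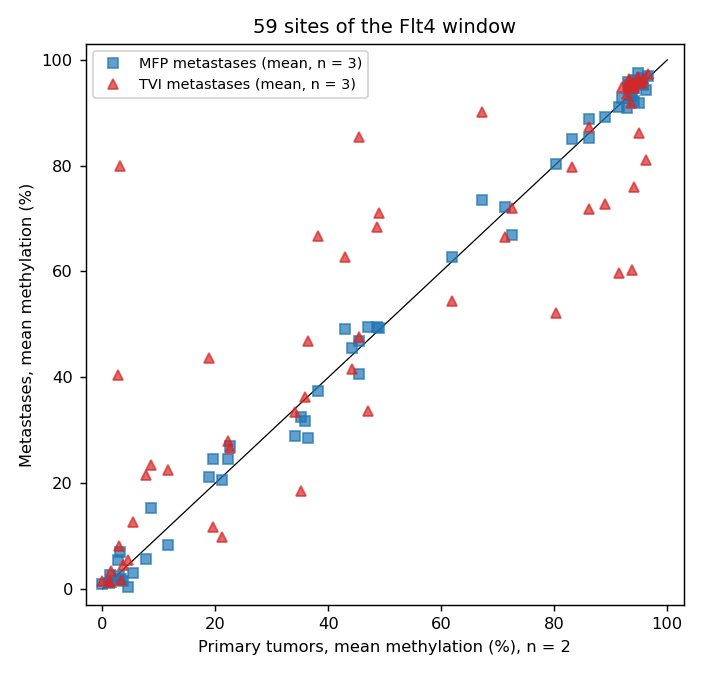
Mean methylation in percent in MFP metastases (squares, n = 3) and TVI metastases (triangles, n = 3) on the vertical axis against the mean of the primary tumors (n = 2) on the horizontal axis, for the 59 sites; the line marks equal levels. The MFP squares follow the line. The TVI triangles far from it lie mostly above it at low and intermediate tumor levels and below it at high ones. Some intermediate sites also lie below the line.

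Some neighbouring sites held very different levels. The median gap between neighbours was 47 bp. Of 57 neighbouring pairs at most 500 bp apart, 7 differed by over 50 points in the tumors, where 5.21% of all such pairs in the table did. The widest step joined position 49466082, at 94.1% ± 0.641 in tumors, to position 49466130, at 3.66% ± 2.68, over 48 bp. In TVI metastases these sites stood at 76.0% ± 3.77 and 4.57% ± 0.733, so the step was narrower there but not lost. Among the 21 called sites of the second stretch, 9 of 20 successive pairs had opposite directions, beside 20% of successive called pairs over the table, and nothing is read from these counts.

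No difference between MFP metastases and primary tumors was detected at this locus. Over the 59 sites, 0 were called by limma at an adjusted p below 0.05, beside 0.0464% of all sites, and 2 of the 59 had an unadjusted p below that value. The mean difference, MFP metastases minus tumors, ranged from -7.86 to 6.72 points over the sites, with a median of 0.480 against 0.392 over all sites. It was above 0 at 32 sites and below 0 at 27. The groups did not overlap at 11 sites (8 above and 3 below), where 22.7% of all sites did not overlap. In data simulated from the whole table, changes were set only at sites of intermediate mean methylation. In this comparison 4% of changes of 20 points, 38% of changes of 30 points and 76% of changes of 40 points were called. Most changes of 30 points or less at a single such site would thus be missed. No change was set at sites near either end of the scale, so no limit is given for them.

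The site with the largest such difference was also among the least repeatable. Position 49465289 read 48.2% and 24.6% in tumors and 17.2%, 34.2% and 34.1% in MFP metastases, a difference of -7.86 points (SE 6.82, limma adjusted p = 0.825). The groups overlapped, and with the first tumor left out the sign turned, to 3.97 points. Position 49462261, in the first stretch, came next with 6.72 points (SE 2.52, limma adjusted p = 0.464), and all 3 MFP metastases lay above both tumors. At position 49464915 the MFP metastases (72.5%, 71.4% and 76.5%) also lay above the tumors (68.7% and 65.8%), by 6.21 points (SE 3.55, limma adjusted p = 0.688). Position 49464346 differed by 6.03 points (adjusted p = 0.775 with limma), and position 49465817 by -5.61 points (adjusted p = 0.786 with limma).

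Averages gave the same picture. In the first stretch MFP metastases exceeded tumors by 2.66 points (SE 1.52, limma adjusted p = 0.349), and all 3 lay above both tumors. An exact permutation test of these means gave a two-sided p of 0.2, the smallest that the 10 splits of 3 against 2 samples allow. In the second stretch the difference was 0.0146 points (SE 0.663, limma adjusted p = 0.990), and its sign was not stable. Of the 2 stretches, 0 were called, where 5.25% of all stretches were. Over the whole locus the tumors averaged 54.2% and 52.6%, the MFP metastases 53.0%, 53.6% and 54.1% and the TVI metastases 55.4%, 56.3% and 56.4%. Every TVI sample lay above every other sample, by 2.44 points on average over the MFP metastases, a difference that was 0.0277 points after quantile normalization and 11.4 points for the median over sites. MFP metastases exceeded tumors by 0.194 points, with an exact permutation p of 1 (two-sided), and the difference was -0.622 points without tumor 2.

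**Figure D4:**
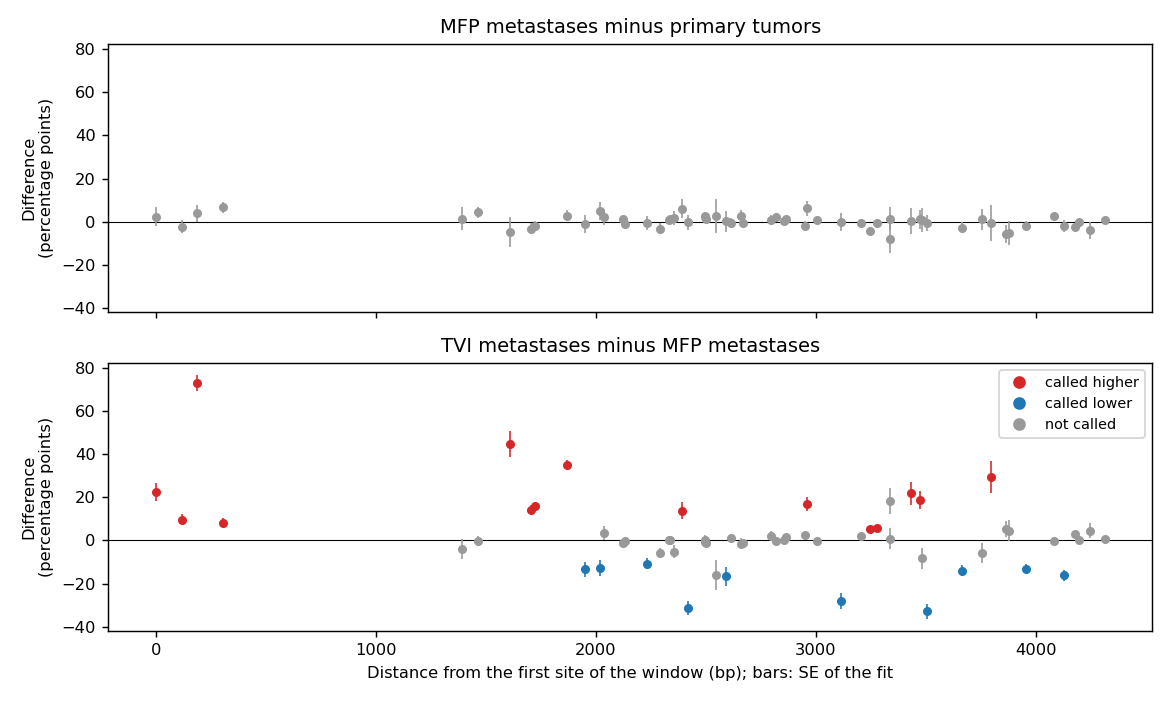
Difference in percentage points at each of the 59 sites (vertical axis, bars are the standard error of the fit) against distance from the first site in bp (horizontal axis), for MFP metastases minus primary tumors (upper panel) and TVI minus MFP metastases (lower panel). The upper panel stays between -7.86 and 6.72 points with 0 sites called, and the lower panel reaches from -32.9 to 73.1 points with 15 sites called higher and 10 lower.

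Repeat samples agreed less well here than over the table. The median SD of a site was 2.68 points at the locus among tumors, 2.58 among MFP and 2.54 among TVI metastases, against 1.61, 1.93 and 1.78 over all 136069 sites. The larger share of intermediate sites goes with this spread, and its part was not tested. Over the whole table, mean methylation was 66.6% and 66.9% in tumors, 67.4% to 67.5% in MFP metastases and 68.5% to 68.7% in TVI metastases. All 3 TVI samples thus stood above the other 5 over the table too, in the same direction as at the locus, and the part of this shift in the Flt4 values was not tested.

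The stretches elsewhere in the table whose 8 values came closest to those of the first stretch were found by root mean square difference among 3081 others. On chromosome 8, positions 114267837 to 114268730 (21 sites, not placed) had a root mean square difference of 5.16 points, at 16.5% ± 0.317 for tumors, 16.9% ± 1.69 for MFP and 38.4% ± 1.31 for TVI metastases. On chromosome 17, positions 46175934 to 46176163 (3 sites) differed by 5.49 points, with 6.12% ± 0.370, 6.77% ± 0.540 and 33.1% ± 3.04 in the same order. That stretch lay between genes, 6441 bp beyond the last listed promoter CG of Vegfa, and a link to that gene was not tested. Of the other 3, those on chromosome 8 at 125369569 to 125369823 (6.30 points) and on chromosome 11 at 117812365 to 117812532 (8.19 points) also lay between genes. The remaining stretch, on chromosome 5 at 139488393 to 139488872 (8.09 points), was not placed. All 5 were picked for their likeness, so their TVI values repeat the choice.

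The rest of the pathway was covered in part. Of a list of 25 genes of the VEGF family, its receptors and lymphatic development, 9 had listed sites within the gene or 5 kb of it. Of the others, 3 were placed and held no site, and 13 had no matched promoter within 5 Mb. Those with no value include Vegfc and Vegfd, which encode the ligands of VEGFR-3, Kdr, which encodes the main receptor of VEGF-A, and Prox1, the transcription factor that sets lymphatic identity. At all 9 loci, 0 sites were called between MFP metastases and tumors, beside 0.0464% of all sites, so nothing is read from this count. Like Flt4, Vegfa, Pgf, Flt1, Gata2 and Efnb2 were placed from 1 flank. The matched promoter lay as far as 2.42 Mb away for Flt1 and 2.35 Mb for Efnb2. For Ephb4 the gene's own promoter was among the matched ones, with 11 of 14 CGs. Foxc2 was placed from both flanks. At Vegfb the flanks gave different displacements. Sites are assigned to these genes under that limit.

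Among the other receptors, Flt1 had sites. Flt1 encodes VEGFR-1, which binds VEGF-A, VEGF-B and placental growth factor. Of its 61 sites, 17 were called higher and 0 lower in TVI than in MFP metastases, or 27.9% beside the 16.9% of all sites. Position 148401414 on chromosome 5 showed the widest difference, from 3.65% ± 2.15 in tumors and 6.47% ± 1.43 in MFP metastases to 55.5% ± 4.91 in TVI metastases. Over all 61 Flt1 sites the mean was 62.3% ± 0.620, 63.0% ± 0.746 and 70.6% ± 0.396. Flt1 thus also held a site that was nearly unmethylated in the MFP samples and partly methylated in the TVI samples.

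The ligand genes held called sites of both directions. Vegfa, which encodes the main growth factor of blood vessels, had 8 of 76 sites higher and 3 lower in TVI than in MFP metastases, or 14.5% beside 16.9% of all sites. Vegfb, a ligand of VEGFR-1, had 3 of 34 sites higher and 11 lower, or 41.2%, with means of 18.0% ± 0.581 for tumors, 18.7% ± 0.749 for MFP and 11.5% ± 0.479 for TVI metastases. Pgf, which encodes placental growth factor, had 18 of 137 sites higher and 12 lower, or 21.9%, and its mean was 73.8% ± 0.729, 73.5% ± 0.431 and 73.8% ± 0.594 in the same order. Vegfa and Pgf were thus near the share over all sites. The 4 listed sites on promoter CGs of Pgf ran from position 86517119 to 86518482 on chromosome 12. That is wider than 1 promoter window, so more than 1 promoter of the gene was pooled. All 4 were called, 3 lower and 1 higher, beside 16.9% of all sites. The higher one, position 86517119, stood at 31.7% ± 14.6 in MFP and 58.0% ± 12.9 in TVI metastases. The median difference of the 4 pooled sites was -22.1 points.

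The Vegfa promoter is printed as an example of a promoter in this family whose listed CGs stayed nearly unmethylated. It was placed from 1 flank, and 7 of its 16 CGs were listed, so the others have no value. RefSeq (GRCm38.p6) gives these 250 bases at chr17:46032378-46032627, minus strand, 5′ to 3′, with the 4 CGs that match a listed site in capitals; 3 further listed CGs lie in the 50 bases after the gene's start.
Vegfa: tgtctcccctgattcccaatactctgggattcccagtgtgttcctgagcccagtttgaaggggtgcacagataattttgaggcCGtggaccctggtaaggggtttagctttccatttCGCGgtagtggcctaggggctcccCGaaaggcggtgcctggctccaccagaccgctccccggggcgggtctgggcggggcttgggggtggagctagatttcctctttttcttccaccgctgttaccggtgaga
Over the 7 listed CGs, methylation was 2.48% ± 1.28 for tumors, 1.98% ± 1.36 for MFP and 2.17% ± 0.920 for TVI metastases. No single site of a sample exceeded 10.7%. The differences between these means were smaller than the spread within groups. Among the 7 single sites, 1 was called higher in TVI metastases than in tumors, beside 11.4% of all sites. Between the metastasis groups, and between MFP metastases and tumors, 0 of them were called.

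The lymphatic regulators held gains and losses as well. Foxc2, a transcription factor needed for lymphatic valves, had 3 of 113 sites higher and 2 lower in TVI than in MFP metastases. Gata2, another factor of valve development, had 5 of 59 higher and 4 lower. Efnb2, the ligand ephrin-B2, had 9 of 224 higher and 3 lower, and Ephb4, its receptor, had 28 higher and 32 lower of 311 tested. The 11 listed promoter CGs of Ephb4 stood at 2.0% ± 0.570, 1.39% ± 1.04 and 1.68% ± 0.192 in tumors, MFP and TVI metastases. The shares called at these 4 loci ran from 4.42% at Foxc2 to 19.3% at Ephb4, beside 16.9% of all sites and 42.4% of the Flt4 sites, which were chosen on this contrast.

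The tissue labels could not be checked, because no listed site was placed on a promoter CG of a marker gene. Of 16 marker genes of epithelium, leukocytes, endothelium and lung, 1 had listed sites. That was Pecam1, an adhesion molecule of endothelial cells and leukocytes, with a mean over 37 sites of 71.1% ± 0.246 for tumors, 71.7% ± 0.906 for MFP and 80.4% ± 0.872 for TVI metastases. Of these sites, 13 were called higher and 3 lower in TVI than in MFP metastases, or 43.2% beside 16.9% of all sites and 42.4% of the Flt4 sites. Methylation gives no expression level, and the part of the cell mixture in the differences at Flt4 was not tested.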

How the data were processed

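Bisulfite sequencing was used on 8 samples of 3 groups. The authors deposited 1 table of beta values (the methylated fraction of reads at a site) per the file headers, printed here as percent. Trimmomatic, Bismark and mm10 are named, without versions, in the submitters' processing notes. No source used here gives coverage or filters, so depth is unknown and intervals that need it were not computed. No value column lacked a sample.

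The 135914 sites that varied entered a limma fit (version 3.58.1, R 4.3.3) of 1 mean per group, with a variance trend and Benjamini-Hochberg adjustment over all of them (threshold 0.05, two-sided). Stretches (sites at most 500 bp apart, at least 3) were fitted likewise on their means. Means over the locus were compared by exact permutation. The fit was tested on simulated data. Promoters were matched to listed sites within 8 Mb of their GRCm38.p6 position, with at least 10 matched CGs and 4 more than the next best displacement. Matches were kept only where another promoter of the chromosome had nearly the same displacement. Genes within 5 Mb of a matched promoter were placed by its displacement.

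Sites named are the 8 with the largest TVI minus MFP difference and the 5 with the largest MFP minus tumor difference. The first and last listed sites of the interval, the nearest listed site beyond each and the 5 most like stretches are also named. The locus, gene lists and markers were chosen with earlier results of these data known. Alternatives were quantile normalization, a logit scale, no variance trend, a filter on range, a replicate block, only the groups compared, other joining distances and each sample left out.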

Additional observations from a re-analysis of the deposited data

Results flagged for a closer look

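At 25 of the 59 sites the difference from the primary tumors was unequal in TVI and MFP metastases, as limma called TVI and MFP metastases different there. The sites were chosen for this contrast, so the count is a description, and 16.9% of all sites were called in it.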

How the results depend on the processing

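No site and neither stretch was called between MFP metastases and tumors in any of the alternatives tried. Whether the replicate numbers pair the samples was not settled. Deviations of same-numbered samples from their group means correlated at -0.0319 to 0.0264. Between the metastasis groups, same-numbered samples correlated at 0.0264, 0.00738 and 0.013, and differently numbered ones at -0.0251 to 0.0156. MFP metastasis 2 correlated more with TVI metastasis 3 than with TVI metastasis 2. Deviations within so small a group are bound to cancel out, so these values cannot decide the question. With the replicate block, 23 sites were called between TVI and MFP metastases, 18 between TVI metastases and tumors and 0 between MFP metastases and tumors, and the second stretch's MFP minus tumor difference became -0.207 points.

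Quantile normalization called 2 stretches in each TVI comparison. It gave locus mean differences of -0.866 (MFP minus tumor), 0.0277 (TVI minus MFP) and -0.838 (TVI minus tumor) points, and second-stretch differences of -1.09 (MFP minus tumor) and -1.79 (TVI minus MFP) points. The median over sites in place of the mean gave -1.61, 11.4 and 9.82 points for the 3 differences. The cause was not tested.

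With each sample left out, sites called ran from 16 to 26 (TVI against MFP), 16 to 23 (TVI against tumor) and 0 to 0 (MFP against tumor). The count of 16 between TVI and MFP came without MFP metastasis 1 and without TVI metastasis 3. No share of all sites is given for these fits, so the counts are not read as a trait of the locus. Stretches called ran from 1 to 1, 1 to 1 and 0 to 0 in the same order. Locus mean differences ran from 2.16 to 2.75, 1.82 to 3.45 and -0.622 to 1.01 points. The second stretch's MFP minus tumor difference ran from -0.852 (without tumor 2) to 0.881 points, with -0.291 without MFP metastasis 3. Position 49465289 ran from -19.7 to 3.97 points, the latter without tumor 1. The filter on a range of at least 0.05 removed the second stretch, which has no value there. Unknown depth and 2 or 3 samples a group limit what a single site can show.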
